A study of Mus musculus with 5 samples.

Results

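The 7 genes described here are the transcription factors and cadherins of the switch between epithelial and mesenchymal cell states: ZEB1 and ZEB2, SNAI1 and SNAI2, and the cadherins CDH1, CDH2 and CDH11. They were chosen by name, and every probe listed for one of them was taken. That gave 19 of the 45281 probes of the array and 7 of 29527 names once array names were brought to current symbols where possible. The array lists Zeb1 and Zeb2 under the older names ZFHX1A and ZFHX1B, and 1 further Zeb2 probe under a cDNA collection name that is now a synonym of Zeb2. Probes listed as SIP1 were left out, because that name has been used for Zeb2 and for another gene.

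Total RNA of mouse uteri, labelled with biotin, had been hybridised to 1 Illumina bead array per pool of uteri. There were 2 pools of Dicer conditional knockout (cKO) uteri (pools 10 and 12), in which Dicer had been deleted by Cre recombinase driven from the progesterone receptor (PR-Cre), and 3 pools of wild type control uteri (pools 7, 9 and 11). Both groups came from animals aged 15 days on a mixed hybrid background of C57BL/6J and 129S5/Brd. The sources used here do not give how many uteri a pool held, or whether the controls carried floxed or Cre alleles. The pool was the unit of every test, and limma's p-values draw their spread from these pools and from other genes. Variation between single animals was not measured. Cre follows the progesterone receptor, so cells that never expressed the receptor keep Dicer. The labels name a human array, while the gene names in the files are those of mouse, and the names in the files were used.

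An epithelial cell is held to its neighbours by E-cadherin, the product of CDH1. The zinc finger repressors ZEB1, ZEB2, SNAI1 (Snail) and SNAI2 (Slug) bind the CDH1 promoter and switch it off, and cells that lose E-cadherin often gain N-cadherin (CDH2) or cadherin-11 (CDH11). Epithelial cells keep ZEB1 and ZEB2 low with the miR-200 family of microRNAs, and the ZEB proteins in turn repress the miR-200 genes. Dicer cuts microRNA precursors into mature microRNAs, so the question put to these genes was whether Dicer cKO uteri held more Zeb1 and Zeb2 mRNA and less Cdh1 mRNA than control uteri. In the uterus, ZEB1 and ZEB2 are also expressed in stroma and smooth muscle, where in pregnant mice they repress contraction genes.

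The microRNAs reported to act on these genes are shown because the base pairing of their seeds ties Dicer to the 4 repressors. Sequences are the mouse RefSeq entries on GRCm38.p6, with the seed, bases 2 to 8, in capitals. The miR-200 family has 5 members, all reported to bind the 3′ UTRs of Zeb1 and Zeb2. The first 3 below share 1 seed and the other 2 share a second, which differs from the first at 1 base.
mmu-miR-200b-3p: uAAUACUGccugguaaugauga
mmu-miR-200c-3p: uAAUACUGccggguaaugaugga
mmu-miR-429-3p: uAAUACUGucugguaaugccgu
mmu-miR-200a-3p: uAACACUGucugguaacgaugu
mmu-miR-141-3p: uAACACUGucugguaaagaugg
The genes of miR-200b, miR-200a and miR-429 lie together on the minus strand of chromosome 4 (their mature sequences at chr4:156055685-156055706, chr4:156054911-156054932 and chr4:156053916-156053937). Those of miR-200c and miR-141 lie on the minus strand of chromosome 6 (chr6:124718324-124718346 and chr6:124717917-124717938). A perfect match to the first seed in a target reads CAGUAUU and to the second CAGUGUU.

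4 further microRNAs with other seeds have been reported for the same repressors: miR-205 for Zeb1 and Zeb2, miR-30a and miR-34a for Snai1, and miR-203 for Snai2.
mmu-miR-205-5p: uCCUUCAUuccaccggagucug
mmu-miR-30a-5p: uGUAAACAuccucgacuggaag
mmu-miR-34a-5p: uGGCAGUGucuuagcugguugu
mmu-miR-203-3p: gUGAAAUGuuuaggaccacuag
Mature microRNAs were not measured on this array, so the activity of miR-200 was not observed directly.

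Between 21297 and 22414 probes were detected per array. Dicer1 mRNA itself, listed under D12ERTD7E, had log2 signals of 8.62 and 8.75 in Dicer cKO pools 10 and 12, against 9.15, 9.08 and 9.12 in control pools 7, 9 and 11. It fell by 0.43 ± 0.09 (SE) on the log2 scale with limma's adjusted p = 0.0224, but it did not pass without control pool 7 (adjusted p = 0.0729), 9 (0.0691) or 11 (0.0574) or without Dicer cKO pool 10 (0.180). The call was also lost with median scaling (0.0508), with the mean of its probes (0.0791) and with no intensity trend (0.0526), so it held in 7 of 14 other settings. A dimmer Dicer1 probe had a difference of -0.22 ± 0.13 and was not called. The sources used here do not say whether the probes lie in the deleted part.

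None of the 7 genes passed the test for a difference between Dicer cKO and control uteri. All 7 were measured with at least 1 probe: 12 of the 19 probes passed the detection filter (2 or more arrays with a detection p under 0.05), 10 of these were detected on every array, and 7 probes on none. With limma's moderated test and Benjamini-Hochberg adjustment over 15733 genes, 0 of 7 genes were called at an adjusted p under 0.05, in either direction, and 1 of 7 had an unadjusted p under 0.05. Over all genes 6.74% were called (2.78% higher and 3.96% lower in Dicer cKO pools) and 20.8% had an unadjusted p under 0.05. Of the members' probes 0 of 12 were called, beside 5.87% of all 22845 probes. The Dicer cKO and control pools did not overlap for 2 genes that were higher (Zeb1 and Cdh2) and 1 that was lower (Cdh1), where 19.9% of all genes did not overlap on the higher side and 17.6% on the lower. The fit would have called a difference of 0.29 to 0.56 on the log2 scale, depending on the gene, at the spread of these pools.

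**Figure D1:**
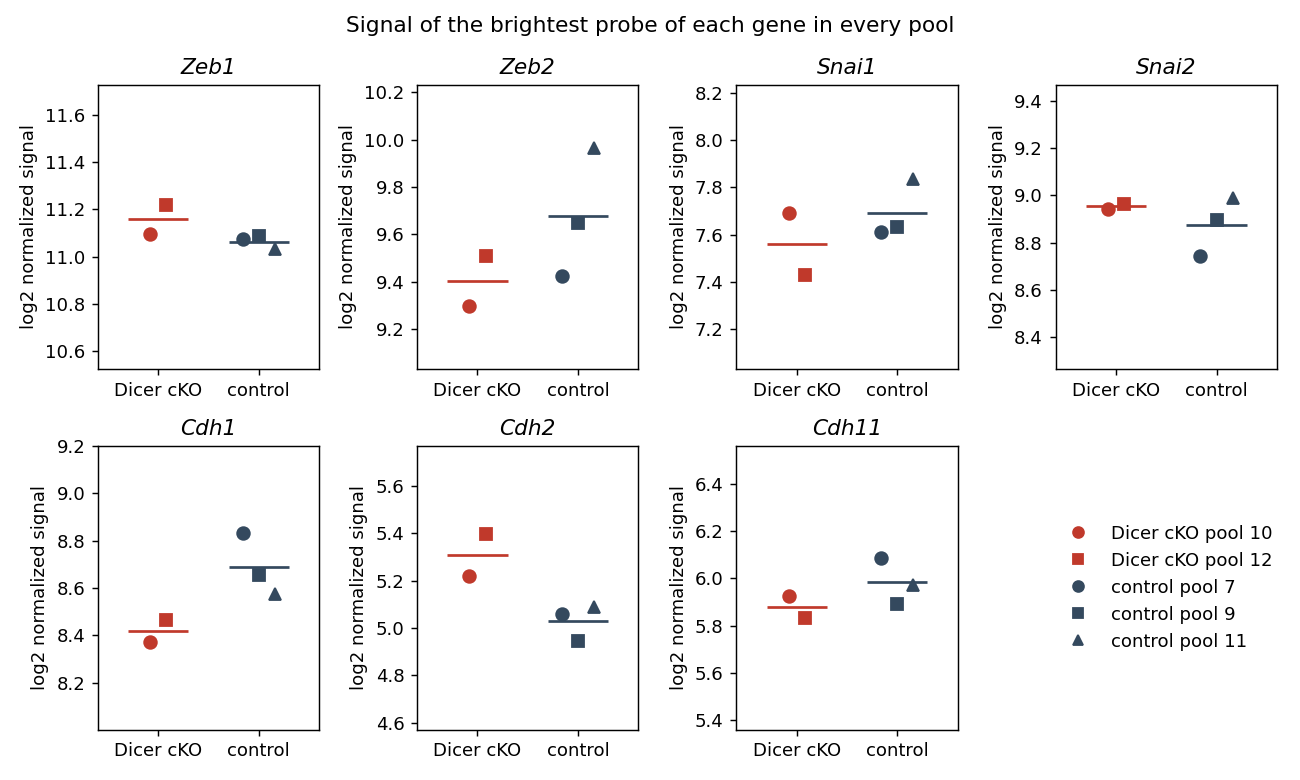
Each panel shows the log2 normalized signal of the brightest probe of 1 gene in every pool, Dicer cKO pools left and control pools right, with a line at each group's mean and a y axis that spans 1.2 log2 units in every panel. The groups stand apart for Zeb1, Cdh1 and Cdh2 and overlap for the other 4 genes, and the Zeb1 values lie between 11.03 and 11.22.

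Zeb1, the repressor with the best studied miR-200 sites, had a difference close to 0 in RNA of whole uteri. The signal of whole uteri was not split by cell type, so a change confined to epithelial cells was not tested. Its brightest probe gave log2 signals of 11.10 and 11.22 in Dicer cKO pools 10 and 12, against 11.07, 11.09 and 11.03 in control pools 7, 9 and 11. Both Dicer cKO pools lay above every control pool, pool 10 by a margin smaller than the spread of the controls. The difference was 0.09 ± 0.07 (SE), with a 95% interval of -0.07 to 0.26 and an adjusted p of 0.528 (limma, n = 2 and 3 pools). The interval therefore runs from 0.952 to 1.20 times the control level, and 62.6% of all genes differed more, in either direction. Before normalization the deposited intensities were 2083 and 2453 in Dicer cKO pools, against 2479, 2198 and 1962 in control pools, and there the groups overlapped. The dimmer Zeb1 probe, detected on 1 array of each group, differed by 0.03 ± 0.23.

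Zeb2, its close relative, was lower on average in Dicer cKO pools and did not pass the test. The log2 signals were 9.30 and 9.51 in Dicer cKO pools 10 and 12, against 9.43, 9.65 and 9.96 in control pools 7, 9 and 11. Dicer cKO pool 12 lay between control pools 7 and 9, and the controls were more spread (SD 0.27) than for any other of the 7 genes. The difference was -0.28 ± 0.14 (SE), with a 95% interval of -0.60 to 0.05 and an adjusted p of 0.321 (limma). On a linear scale the interval of this probe spans 0.661 to 1.03 times the control level. The value rested in part on 1 pool: without control pool 11 it was -0.13 (adjusted p = 0.605) and without Dicer cKO pool 10 it was -0.17 (adjusted p = 0.761).

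The second detected Zeb2 probe was dimmer and gave 6.35 and 6.39 in Dicer cKO pools, against 6.87, 6.56 and 6.22 in control pools. It too overlapped, with a difference of -0.18 ± 0.18. The remaining pair of Zeb2 probes was detected on no array.

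SNAI1 represses CDH1 during mouse gastrulation, and its groups overlapped. The brighter Snai1 probe gave 7.69 and 7.43 in Dicer cKO pools 10 and 12, against 7.61, 7.63 and 7.84 in control pools 7, 9 and 11. The difference was -0.13 ± 0.13 (SE; 95% interval -0.42 to 0.16; limma's adjusted p = 0.626), and the 2 Dicer cKO pools lay on either side of control pools 7 and 9. The dimmer probe gave 0.02 ± 0.15.

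SNAI2, the Slug protein of neural crest and mesenchyme, had 1 probe, detected on every array. Its log2 signals were 8.94 and 8.96 in Dicer cKO pools, against 8.74, 8.89 and 8.99 in control pools 7, 9 and 11. The Dicer cKO values lay within the range of the controls. The difference was 0.08 ± 0.10 (SE; 95% interval -0.15 to 0.30; limma's adjusted p = 0.732).

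Of the 7 genes, Cdh1 was the 1 whose interval did not reach 0. The brighter probe of this E-cadherin gene gave 8.37 and 8.47 in Dicer cKO pools 10 and 12, against 8.83, 8.66 and 8.58 in control pools 7, 9 and 11. Every Dicer cKO pool lay below every control pool after normalization, whereas the deposited intensities of 334 and 389 in Dicer cKO pools and of 544, 442 and 383 in control pools overlapped. The difference was -0.27 ± 0.11 (SE; 95% interval -0.51 to -0.03, or 0.701 to 0.981 times the control level). Its unadjusted p was 0.0321 and its adjusted p 0.190 (limma), so Cdh1 was not called, and 22.1% of all genes differed more. A call would have needed a difference of 0.42.

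The second Cdh1 probe, dimmer but detected on every array, had a difference of the opposite sign. It gave 6.02 and 5.76 in Dicer cKO pools, against 5.61, 5.81 and 5.44 in control pools, a difference of 0.27 ± 0.16 (SE; 95% interval -0.08 to 0.62; limma's adjusted p over all probes 0.386). The gap between the probes was 2.35 and 2.70 in Dicer cKO pools, against 3.23, 2.85 and 3.13 in control pools, lower by 0.54 on average and without overlap. An exact permutation test could not decide on that change, since 10 splits of 5 pools allow no 2-sided p below 0.1. It gave a p of 0.2, and an adjusted p of 0.75 over the 5 genes with a pair of detected probes. When the probes of Cdh1 were averaged, its difference was 0.00060 (adjusted p = 0.998). The detected Cdh1 probes thus had differences of opposite sign, and for the dimmer one the groups overlapped. The sources used here do not say what each probe targets within the transcript.

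**Figure D2:**
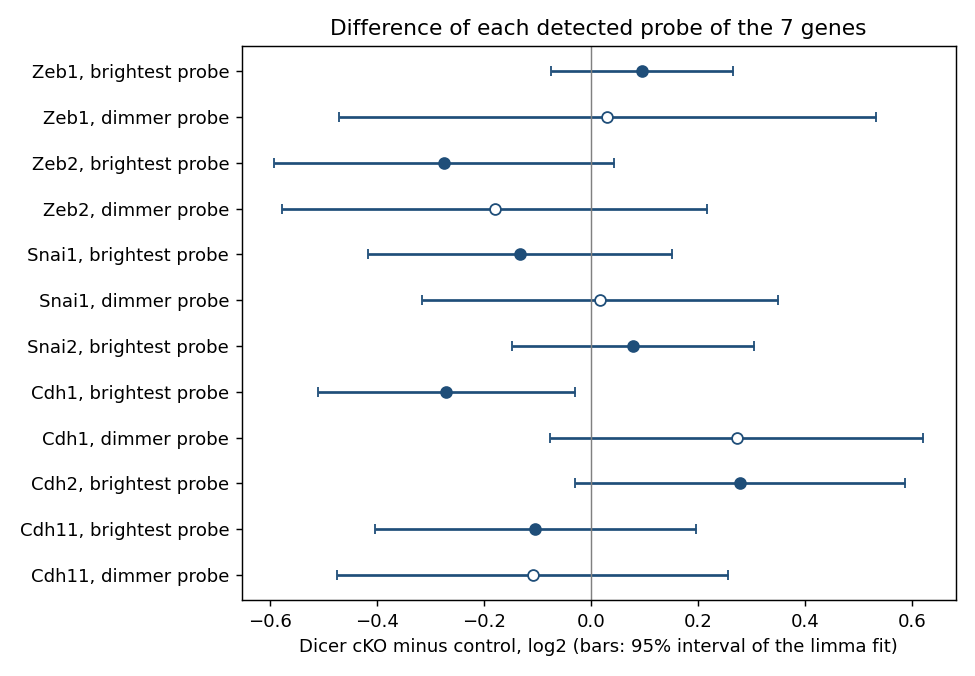
Each row is 1 of the 12 detected probes of the 7 genes, with its Dicer cKO minus control difference on the log2 scale as a point, filled for the brightest probe of a gene, and a 95% interval from the limma fit over all probes as a bar. The interval of the brightest Cdh1 probe lies below 0, the dimmer Cdh1 probe has a difference of 0.27, and the other intervals cross 0.

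Cdh2 encodes N-cadherin, a cadherin of neural and mesenchymal cells. Its signal was close to background: 4 of its 5 probes were detected on no array, and the brightest was detected on all but control pool 9. That probe gave 5.22 and 5.40 in Dicer cKO pools 10 and 12, against 5.06, 4.94 and 5.09 in control pools 7, 9 and 11. The groups did not overlap, and the difference was 0.28 ± 0.14 (SE; 95% interval -0.03 to 0.58; limma's adjusted p = 0.284).

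Cdh11 encodes a cadherin of mesenchymal cells. The probe used gave 5.92 and 5.83 in Dicer cKO pools, against 6.09, 5.89 and 5.97 in control pools 7, 9 and 11. The groups overlapped, and the difference was -0.10 ± 0.13 (SE; 95% interval -0.40 to 0.19; limma's adjusted p = 0.725). The second detected probe gave -0.11 ± 0.16, and 1 more was detected on no array.

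Over the 7 genes, 3 differences lay above 0 and 4 below, with a median of -0.10, beside a median of 0.01 and a median absolute difference of 0.13 over all genes. The repressors did not move together: Zeb1 and Snai2 were slightly higher and Zeb2 and Snai1 lower, none past the threshold. The bead error of a single signal was 2.31% to 8.01% of the intensity over the 12 detected probes.

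The genes whose log2 signal followed a member most closely over the 5 pools were found among the 11019 genes that were detected on every array and could be given a current gene symbol. For Zeb1 these were Trio, Slc4a3 and Polr3g (Pearson's r of 0.998, 0.997 and 0.995), for Zeb2 they included Bscl2 and Ahnak (0.997 and 0.992), and for Cdh1 they were Mib2, Stard8 and Dcn (0.998, 0.998 and 0.998). With 5 points that share their arrays such values are a description, and 40 genes reached an r above 0.99 with Cdh1, 5 with Zeb1 and 3 with Zeb2.

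The other genes of the pathway were taken as whole lists. In bulk RNA, fewer cells of a type and less RNA per cell cannot be told apart, which holds for the switch genes above and for each list that follows. The counts of each list stand beside 2.78% of all genes called higher and 3.96% called lower. Among 14 further transcription factors that promote the mesenchymal state, 9 passed the detection filter, 2 rose, 1 fell and 6 were not called, with a median difference of 0.06. Twist2, a basic helix-loop-helix factor of mesenchyme, gave 9.24 and 9.31 in Dicer cKO pools 10 and 12, against 9.97, 9.99 and 9.97 in control pools 7, 9 and 11. It fell by 0.70 ± 0.08 (limma's adjusted p = 0.00095) and was called in all 14 other settings tried. Its relative Twist1, at 0.06 ± 0.10, was not called.

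Sox4, a factor of progenitor and tumour cells, gave 11.03 and 11.00 in Dicer cKO pools, against 10.52, 10.59 and 10.47 in control pools, and rose by 0.49 ± 0.08 (adjusted p = 0.00455, limma). Its adjusted p was 0.0512 without Dicer cKO pool 10 and 0.117 with the mean of its probes (0.35), of which the dimmest differed by 0.10 ± 0.19. Foxq1, a forkhead factor, rose by 0.83 ± 0.21 (limma's adjusted p = 0.0472). It was called in 7 of 14 other settings and was lost without control pool 9 (adjusted p = 0.0531), Dicer cKO pool 10 (0.299) or Dicer cKO pool 12 (0.120), and with median scaling (0.0797), cyclic loess (0.0514), no detection filter (0.117) or no intensity trend (0.0783). Snai3, another Snail gene, had a difference of 0.31 ± 0.14 and was not called.

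Of 13 factors that hold cells in the epithelial state, 11 passed the detection filter, 1 rose and 2 fell, with a median of -0.30. Klf5, a Krüppel-like factor of epithelial growth, gave 9.81 and 9.79 in Dicer cKO pools, against 10.74, 10.57 and 10.39 in control pools, and fell by 0.77 ± 0.10 (adjusted p = 0.00215, limma). Grhl2, a grainyhead factor that activates Cdh1 in mouse embryos, gave 7.23 and 7.14 in Dicer cKO pools, against 7.97, 7.77 and 7.63 in control pools. It fell by 0.60 ± 0.13 (adjusted p = 0.0234, limma), but missed the threshold without control pool 7 (0.0777), control pool 9 (0.0667), Dicer cKO pool 10 (0.118) or Dicer cKO pool 12 (0.0891). Elf5, an ETS factor of mammary and trophoblast epithelium, gave 6.27 and 6.07 in Dicer cKO pools, against 5.31, 5.25 and 4.99 in control pools, and rose by 0.98 ± 0.15 (adjusted p = 0.00429, limma; 0.0698 without Dicer cKO pool 10). Ovol2, a repressor of Zeb1, had a difference of -0.51 ± 0.15 and the splicing factor Esrp2 one of -0.37 ± 0.13, and neither was called.

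Epithelial junction and polarity genes that ZEB or SNAIL factors repress moved in both directions. That list also holds epithelial genes of other kinds, such as the keratin genes, Muc1, Rab25 and Spint1. Of 26 listed, 21 passed the detection filter, 2 rose, 7 fell and 12 were not called, with a median of -0.05. Cldn3, a claudin of tight junctions, gave 9.83 and 10.10 in Dicer cKO pools 10 and 12, against 11.83, 11.38 and 11.11 in control pools 7, 9 and 11, and fell by 1.48 ± 0.17 (limma's adjusted p = 0.00109). Rab25, which recycles membrane proteins in epithelial cells, fell by 1.20 ± 0.09. The mucin gene Muc1 fell by 0.93 ± 0.12 and the keratin gene Krt18 by 0.86 ± 0.09, each with both Dicer cKO pools below every control pool. These 4 genes were called in all 14 other settings. The 7 called lower became 5 with median scaling or no detection filter, and 4 without control pool 7, control pool 9, Dicer cKO pool 10 or Dicer cKO pool 12. The 2 genes that rose, picked out after their values were seen, were Spint1, an inhibitor of membrane serine proteases, at 0.82 ± 0.10, and the claudin gene Cldn4 at 0.55 ± 0.14 (limma's adjusted p of 0.00147 and 0.0481). The list had 1 call on that side, not 2, with median scaling, cyclic loess, no detection filter, detection on all arrays, the mean of probes, no intensity trend or robust spread, and without control pool 9 or 11 or Dicer cKO pool 10 or 12.

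Cadherins need catenins to reach the actin skeleton, and the core catenins did not pass the test. Ctnnb1 (beta-catenin) had a difference of -0.05 ± 0.08, Ctnna1 (alpha-catenin) -0.07 ± 0.08 and Ctnnd1 (p120) 0.10 ± 0.18. Of 14 catenins and cadherin partners, 10 passed the detection filter, 1 was called higher and 0 lower, with a median of 0.08. The 1 called was Ctnnd2, the neural delta-catenin, which was detected in both Dicer cKO pools and in no control pool, and so passed the filter only through the group where it was high. Its log2 signals were 5.77 and 5.73 in Dicer cKO pools, against 4.52, 4.71 and 4.89 in control pools. It was at least 1.73-fold higher, taking the higher of the lowest detected signal and the probe's own signal on each control array (limma's adjusted p = 0.00304). Because of that filter, its call is a description of these pools, and it could be tested in 11 of the 14 other settings.

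Among 20 other cadherins, 9 passed the detection filter, 1 rose and 1 fell, with a median of -0.02. Cdh16, a cadherin of kidney and other tubular epithelia, gave 8.51 and 8.61 in Dicer cKO pools, against 9.25, 9.49 and 9.45 in control pools, and fell by 0.83 ± 0.10 (limma's adjusted p = 0.00141). Cdh3 (P-cadherin), the neighbour of Cdh1 in sequence and in the genome, gave 7.54 and 7.47 in Dicer cKO pools, against 6.75, 6.93 and 7.15 in control pools. It rose by 0.56 ± 0.14 (limma's adjusted p = 0.0448), but missed the threshold without control pool 7 (0.129), control pool 9 (0.116), Dicer cKO pool 10 (0.271) or Dicer cKO pool 12 (0.102), and with median scaling (0.0650), no detection filter (0.0789) or no intensity trend (0.0599). Cdh5, the cadherin of endothelium, had a difference of -0.25 ± 0.09 and was not called.

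Genes of the mesenchymal state moved in both directions, most of the called ones down. Of 26 listed, 25 passed the detection filter, 1 rose, 6 fell and 18 were not called, with a median of -0.09. The 6 called lower became 2 with no intensity trend, 3 with the mean of probes, and, when 1 pool was left out, 3 (control pool 7 or 9), 2 (control pool 11) or 1 (Dicer cKO pool 10). Vim, the intermediate filament gene vimentin, gave 10.85 and 11.13 in Dicer cKO pools, against 12.04, 11.75 and 11.64 in control pools, and fell by 0.82 ± 0.12 (limma's adjusted p = 0.00383; 0.0655 without Dicer cKO pool 10). Thy1, a surface protein of fibroblasts, gave 10.90 and 11.28 in Dicer cKO pools, against 11.97, 11.77 and 11.89 in control pools. It fell by 0.79 ± 0.11 (limma's adjusted p = 0.00264) and was called in all 14 other settings.

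The matrix gene Tnc fell by 0.72 ± 0.16 (limma's adjusted p = 0.0300), and it missed the threshold when control pool 7 (0.0907), control pool 11 (0.0785) or Dicer cKO pool 10 (0.255) was left out, with the mean of its probes (-0.44, adjusted p = 0.0728) and with no intensity trend (0.0702). Lox, which crosslinks collagen, fell by 0.61 ± 0.13 (limma's adjusted p = 0.0248), and missed it when control pool 9 (0.0777), control pool 11 (0.0608) or Dicer cKO pool 10 (0.190) was left out and with no intensity trend (0.0720). The fibronectin receptor gene Itga5, at 0.38 ± 0.10 (limma's adjusted p = 0.0460), was the 1 mesenchymal gene called higher. The list had 0 calls on that side with median scaling, no detection filter, the mean of probes or no intensity trend, and without control pool 7 or 9 or Dicer cKO pool 10 or 12, and 2 without control pool 11. Vim of this list and Cldn3 of the junction and polarity list were both lower in Dicer cKO pools, but each list had calls on both sides. The mesenchymal list had 6 called lower and 1 higher. The junction and polarity list had 7 called lower and 2 higher.

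The reported miR-200 targets other than Zeb1 and Zeb2 were read beside them. Of 27 listed, 22 passed the detection filter and 0 were called, by limma, in either direction, while 6 of the 22 had an unadjusted p under 0.05, beside 20.8% of all genes. Of these 6, Fn1, E2f3, Suz12, Arhgap19 and Sec23a were higher in Dicer cKO pools and Jag1 lower. The median difference of the 22 was 0.05, and 14 lay above 0 and 8 below. The groups did not overlap for 7 of the 22 on the higher side and 3 on the lower, beside 19.9% and 17.6% of all genes. The smallest p was that of Fn1, the matrix protein fibronectin, with 12.48 and 12.65 in Dicer cKO pools, against 12.15, 12.21 and 12.38 in control pools. Its difference was 0.31 ± 0.09 (limma's adjusted p = 0.0659), and it was called with cyclic loess (0.34, adjusted p = 0.0384) and without control pool 11 (0.38, adjusted p = 0.0337). E2f3, a cell cycle factor, gave 6.47 and 6.17 in Dicer cKO pools, against 5.63, 5.88 and 5.86 in control pools, a difference of 0.53 ± 0.15 (limma's adjusted p = 0.0713).

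TGF-beta induces SNAI and ZEB genes in many epithelia. Of 12 ligands, receptors and transducers that feed the switch, 11 passed the detection filter, 1 rose and 0 fell, with a median of 0.05. Tgfbr1, the type I TGF-beta receptor, gave 10.87 and 10.98 in Dicer cKO pools, against 10.45, 10.33 and 10.48 in control pools, and rose by 0.50 ± 0.08 (limma's adjusted p = 0.00570; called in all 14 other settings). The ligand genes Tgfb1 (-0.05 ± 0.11) and Tgfb3 (-0.14 ± 0.12) were not called.

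Of 6 contraction genes that ZEB1 and ZEB2 are linked to in the pregnant uterus, 2 passed the detection filter and 0 were called. Gja1, the gap junction protein connexin 43, gave 11.69 and 11.84 in Dicer cKO pools, against 11.27, 11.43 and 11.58 in control pools, a difference of 0.34 ± 0.10 (limma's adjusted p = 0.0712; 0.0385 without control pool 11). Ptgfr, the prostaglandin F receptor, was detected on every control array and on no Dicer cKO array, so that only a bound of at least 1.05-fold lower in Dicer cKO pools can be given, and it was not called. Oxtr, the oxytocin receptor, and 3 others did not pass the detection filter.

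**Figure D3:**
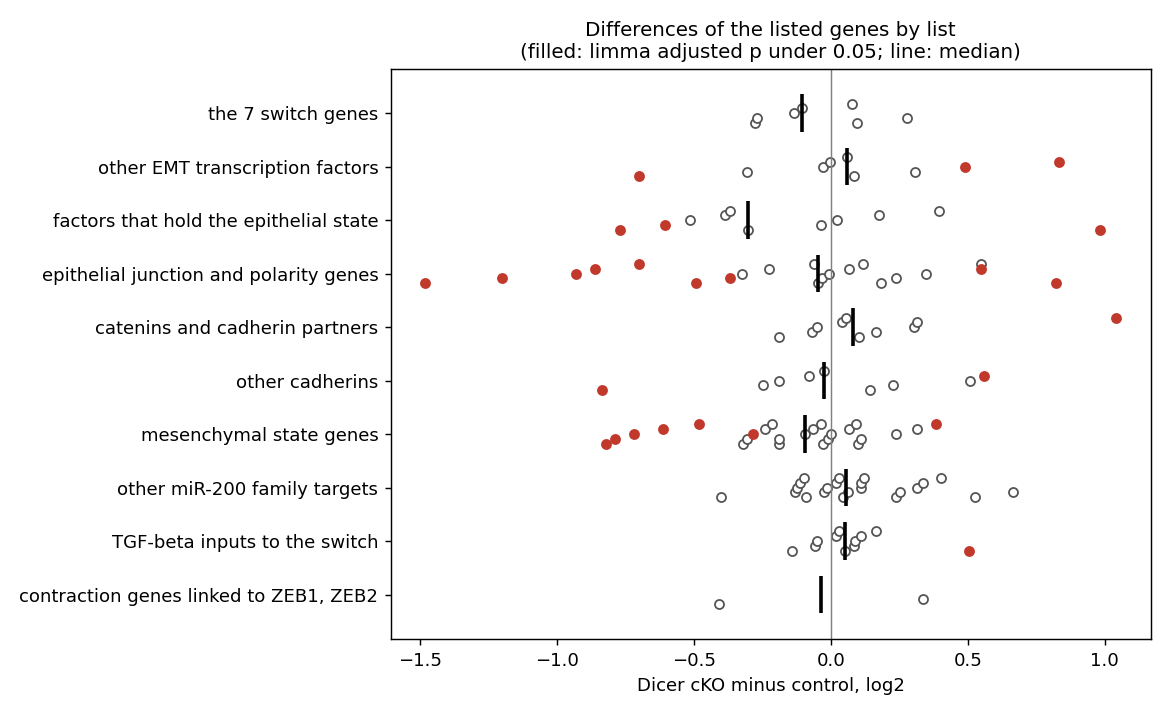
Each point is a gene that passed the detection filter, placed by its Dicer cKO minus control difference on the log2 scale, with 1 row for each list, filled where limma's adjusted p was under 0.05 and with a line at the list's median. The 7 switch genes hold no filled point and span -0.28 to 0.28. The row of epithelial junction and polarity genes, which also holds other epithelial genes, reaches -1.48 and 0.82.

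Marker genes of the cell types of the uterus were also read, and many of them stand in the lists above. Cldn3, Cldn4, Cldn7, Muc1, Krt8, Krt18 and Epcam are also on the junction and polarity list. Vim, Thy1, Dcn, Lum, Pdgfra, Col1a1 and Col3a1 are also on the mesenchymal list. Their marker values therefore repeat values of those lists. Of 10 epithelium markers 9 passed the filter. Their summed linear signal was 8227 and 8012 in Dicer cKO pools 10 and 12, against 12612, 10972 and 9989 in control pools 7, 9 and 11. The groups did not overlap. By the test 5 of the 9 were lower (Cldn3, Krt18, Krt19, Krt8 and Muc1) and 2 higher (Krt7 and Cldn4). Wnt7a, at 0.89 ± 0.23 (limma's adjusted p = 0.0501), and Cldn7, at 0.35 ± 0.22, also lay above 0 and were not called. The sum gives most weight to bright genes such as Krt8 and Cldn3, and Cldn3 differed most. Epcam was detected on no array. The sum of 9 stroma markers was 36428 and 41193 in Dicer cKO pools, against 45323, 43659 and 43982 in control pools, with 3 lower (Tcf21, Thy1 and Vim) and 0 higher. The sum of 9 smooth muscle markers was 49817 and 51418 in Dicer cKO pools, against 48003, 47414 and 49756 in control pools, and 0 of the 9 were called.

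The 2 of 4 adipocyte markers that passed, Adipoq and Cfd, summed to 629 and 1461 in Dicer cKO pools, against 3506, 2470 and 1829 in control pools, and both were called lower. The sum of the 4 of 6 myeloid markers that passed was 1487 and 1855 in Dicer cKO pools, against 1033, 1016 and 1182 in control pools, with Cd68 and Lyz2 called higher. The 7 endothelium, 5 mesothelium and 6 detected uterus identity markers had sums that overlapped. Pgr, the progesterone receptor gene from which Cre is driven, fell by 0.77 ± 0.14 (limma's adjusted p = 0.00896). The sources used here do not say whether the controls carried Cre. Effects of the Cre allele and of Dicer loss on Pgr therefore cannot be told apart. The brighter Cdh1 probe, but not the dimmer one, was lower in the same pools as the summed epithelium signal, and Zeb2 and the summed stroma signal were lower on average in Dicer cKO pools. The part of these marker levels in the values of Cdh1, Zeb2 and the lists was not tested.

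The 7 genes were also computed under 14 other settings, and none was called in any of those that could test it. Zeb1 ranged from 0.03 to 0.16, Snai2 from 0.01 to 0.13 and Cdh2 from 0.14 to 0.37, all above 0. Zeb2 ranged from -0.40 to -0.13, Snai1 from -0.26 to -0.0032 and Cdh11 from -0.16 to -0.05, all below 0. Cdh1 ranged from -0.33 to 0.00060, and the value above 0 was the mean of its probes.

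**Figure D4:**
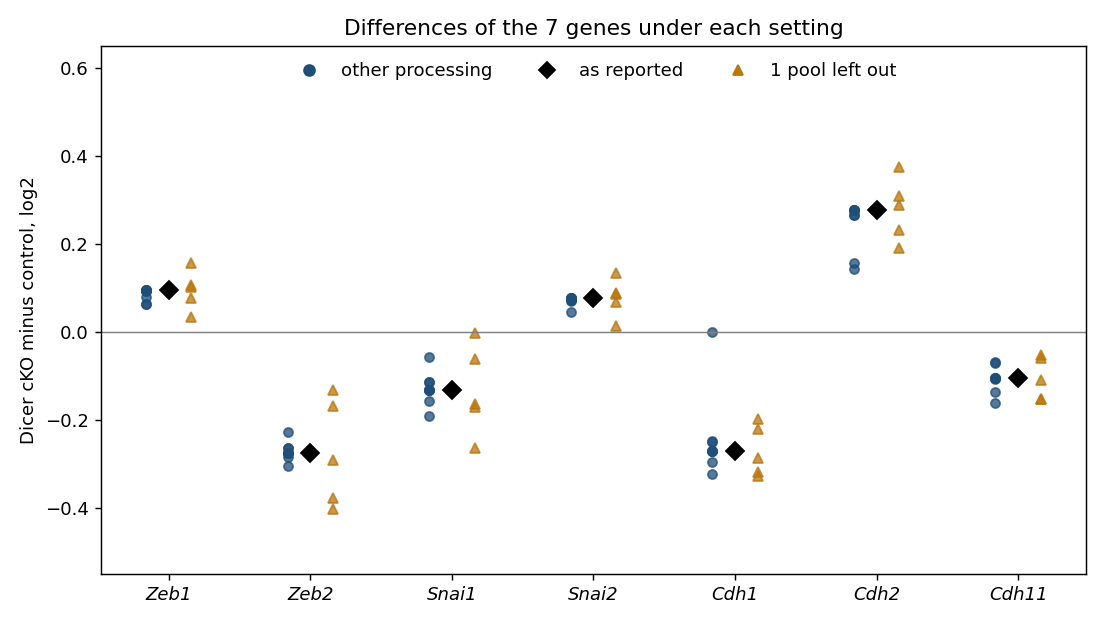
The Dicer cKO minus control difference of each of the 7 genes on the log2 scale is shown as reported (diamond), under other processing (circles, left of it) and with 1 pool left out (triangles, right of it). Cdh1 lies near 0 in 1 setting, the mean of its probes, Zeb2 moves between -0.40 and -0.13, and Zeb1 stays between 0.03 and 0.16.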

How the data were processed

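Total RNA of 5 pools of mouse uteri had been profiled on Illumina bead arrays, and BeadStudio (version not stated) was used per the submitters' processing notes. Per the file headers, the authors deposited for each probe a mean bead intensity (linear scale), its bead spread and a detection score. That score is a fraction from 0 to 1 in the deposited files, and 1 minus it served as the detection p. The deposited intensity values were neither background-subtracted nor normalized between arrays, as judged from the values. A further table of the whole series was not used, since its identifiers occur in no array file.

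With limma 3.58.1 in R 4.3.3, the arrays were background-corrected (normexp, offset 16), quantile-normalized and put on the log2 scale. Probes were kept where 2 or more of 5 arrays had a detection p under 0.05. The brightest probe over all arrays stood for a gene. The offset compresses differences of dim probes. Dicer cKO minus control was fitted with lmFit and eBayes (intensity trend), 2-sided, with no covariate, and p-values were adjusted by Benjamini-Hochberg over all 15733 genes. An adjusted p under 0.05 is a call. The number of arrays limits the precision. The fit was tested on simulated data, with changes larger than the members would have needed for a call. It therefore gives no measure of power for smaller differences. Of 45281 probes, 22864 had a name in current use, 11917 were matched as synonyms in a RefSeq table, 10473 kept the array's name and 27 had names turned into dates.

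The members and the gene lists were chosen with earlier results of these data known. Named were all 7 genes, Dicer1 and Pgr, up to 4 called genes of each list with the largest differences, or the 2 with the smallest p where none was called, and the 3 genes most alike to each of Zeb1, Zeb2 and Cdh1. 1 gene that this rule names is not reported here. Other listed genes the text names were picked after their values were seen. Alternatives covered the background, normalization, filter, probe choice, spread and leaving out each pool.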

Additional observations from a re-analysis of the deposited data

How the results depend on the processing

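No member was called under any of the 14 settings in which it could be tested, and Cdh2 could not be tested when detection on all arrays was required. The difference of Cdh1 was 0.00060 (limma's adjusted p = 0.998) with the mean of its probes, since its dimmer probe had a difference of the opposite sign. The number of genes called over the array was 1061 and ran from 275 (without Dicer cKO pool 10) to 956 (without Dicer cKO pool 12) when 1 pool was left out, with 606 without control pool 7 and 644 without control pool 9. Genes called higher numbered 438, against 282 with median scaling, 286 with no detection filter and 281 with no intensity trend. Of the listed pathway genes 26 were called, 17 with no intensity trend and between 10 (without Dicer cKO pool 10) and 23 (without control pool 11) with 1 pool left out. Scaling moved the median difference of all genes between -0.020 and 0.015. A pool left alone in its group was assumed to vary like the other group. No paired analysis was possible because the pools of both groups share no number. Cdh2 lay near background, where the precision is lowest.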
